A study of Mus musculus with 6 samples.

Results

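Collagen chain genes were examined in KLN205 tumours grown in mice with and without an antibody that binds PD-1, a receptor by which T cells are held back. The genes were chosen by a rule on names, with earlier results of these data known. It takes every row of the expression table whose gene symbol reads Col, a number, the letter a and a number, with Col17a1 left out. This gave 43 of 22206 transcript clusters, which lie on 14 chromosomes. They comprise 11 fibrillar genes, 6 of basement membrane type IV, 6 of beaded filament type VI, 3 of the network types VIII and X, 9 FACIT genes (fibril-associated collagens with interrupted helices) and 8 others. Of the 43, 42 have a cluster with a single gene name and were among the 21154 genes tested. The cluster of Col7a1 also names the microRNA gene Mir711, so its values come from a fit over all clusters.

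KLN205 is a squamous cell carcinoma line from mouse lung. The cells were injected under the skin, 1000000 per mouse, in 50 µL of medium with 100 µL of Matrigel, a basement membrane gel. Mice received 250 µg of antibody into the peritoneum at intervals of 3 days, and total RNA of each tumour was read on its own Clariom S Mouse array. The anti-PD-1 group held replicates 1, 2 and 3. The control group held replicates 2, 3 and 4, which the sample labels call untreated with anti-PD-1 and the protocol describes as given an IgG2a isotype antibody. Strain, sex and age of the mice are not given in the sources used here, and nothing says that each tumour came from its own mouse, so the p-values reflect the spread of these samples alone, which may be technical. According to the series text the cells had survived 7 days, whereas each sample label names tumour tissue. In such tissue, fewer cells of a type and less RNA per cell cannot be told apart.

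Collagens are built from 3 alpha chains wound into a triple helix. Fibrillar types give connective tissue its tensile fibres, type IV forms the mesh of basement membranes, type VI makes fine filaments around cells, and FACIT chains decorate the surface of fibrils. In carcinomas most fibrillar collagen is made by fibroblasts, while epithelial and endothelial cells contribute basement membrane chains. All values below are log2 signals, on which a step of 1 is a doubling, and probes of different genes are not on a common scale, so levels are compared between arrays and not between genes.

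Control replicate 3 stood apart. Across the genes tested, its correlation with the other arrays lay between 0.907 and 0.936, against 0.973 to 0.987 among the other 5. The mean log2 signal of 8 adipocyte markers was 14.34 in it and 5.97 to 10.07 elsewhere, and that of 7 squamous epithelial markers was 9.08 against 12.18 to 15.86. Results are therefore also given without this array. Leaving it out does not remove such differences among the other arrays. The mean log2 signal of 6 mammary and milk markers was 9.025 in control replicate 2 and 10.24 in control replicate 3, and 4.77 to 5.29 elsewhere. That of 8 skeletal muscle markers was 8.36 in anti-PD-1 replicate 3 and 11.01 to 13.77 elsewhere.

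The collagen genes were lower in anti-PD-1 tumours more often than higher, and the multiplexins Col15a1 and Col18a1 differed in opposite directions. Of the 42 genes tested, 29 were lower (69.0%, beside 48.3% of all genes) and 13 higher, with a median log2 difference, anti-PD-1 minus control, of -0.34, beside 0.02 for all 21154 genes. None passed the adjusted threshold of 0.05 by limma, where 0.00473% of all genes did, and the smallest adjusted p was 0.506. At an unadjusted p under 0.05, 10 collagen genes were lower, or 23.8%, beside a background of 4.52%, and 1 was higher, or 2.38%, beside 5.18%, where 9.7% of all genes met it in either direction. In 13 genes (31.0%) every anti-PD-1 value lay below every control value, which held for 7.76% of all genes, and in 2 genes every value lay above, beside 8.82%. Chains of one molecule and genes of one cell type share their source, so the genes are not independent of each other. By the p-values of the authors' deposited table, 11 of the 43 genes have a p under 0.05, 10 of them higher in control and 1 higher in anti-PD-1, with a smallest FDR of 0.509. The group averages in the authors' deposited table are not the arithmetic means of the 3 arrays: in 31 of the 43 genes at least 1 of them is off by more than 0.05. By those averages the difference, anti-PD-1 minus control, is -1.67 for Col15a1, 1.52 for Col18a1 and -0.24 for Col1a1, and it has the opposite sign to the one given here for 4 genes, Col2a1, Col4a6, Col13a1 and Col20a1.

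The count of 10 lower genes depended on the arrays. It stayed at 10 without control replicate 3 and was 12 without control replicate 2, but 4 without control replicate 4. It was 6, 3 and 4 when anti-PD-1 replicates 1, 2 and 3 were left out in turn. With the replicate number as a block it was 2, and only replicates 2 and 3, the numbers found in both groups, then enter the difference. The share over all genes moved too: beside 9.52% of the collagens it was 4.79% without control replicate 4, beside 14.3%, 7.14% and 9.52% it was 3.1%, 3.12% and 2.18% for the 3 anti-PD-1 arrays, and beside 4.76% it was 1.37% with the block. Without control replicate 3 it was 4.57%, beside 23.8% of the collagens, and without control replicate 2 it was 6.74%, beside 28.6%. The number of higher genes was 2 (4.76%) on leaving out control replicate 2, beside 8.22% of all genes, or anti-PD-1 replicate 3, beside 2.79%. The shares of all genes given here and above are also the background of the counts within classes and lists below.

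**Figure D1:**
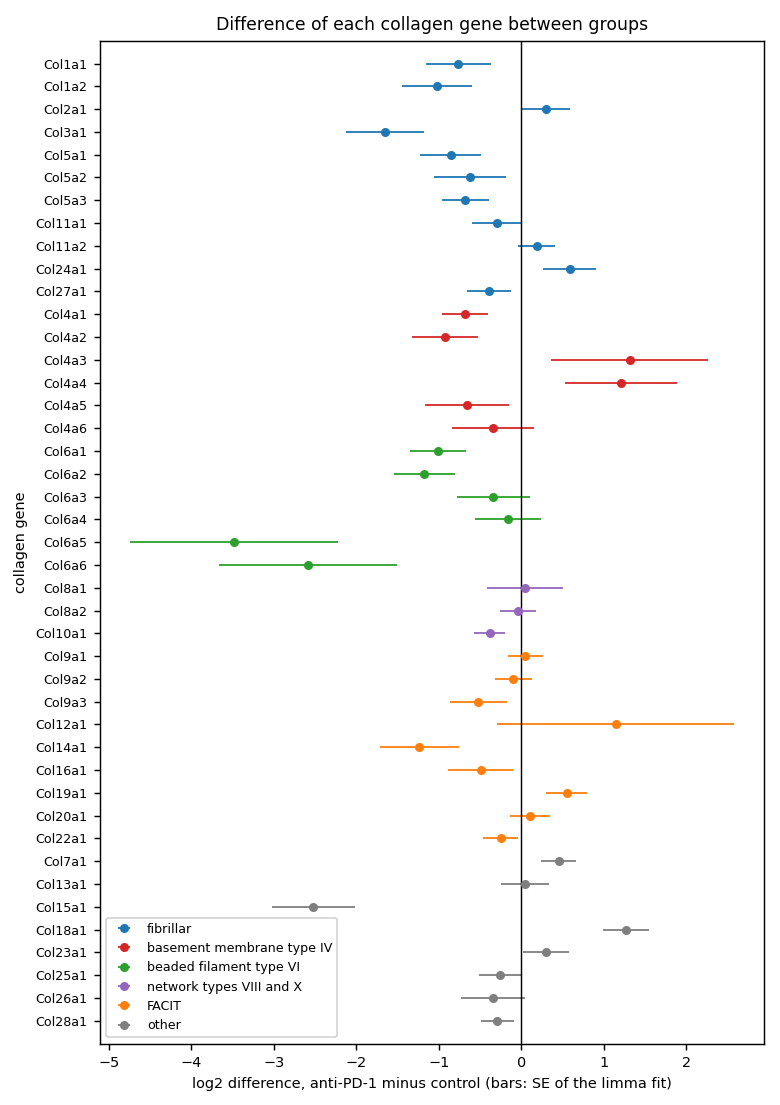
Log2 difference of each of the 43 collagen genes, anti-PD-1 minus control (x axis), with the SE of the limma fit as bars and the collagen class as colour. Points left of the line at 0 are lower in anti-PD-1 tumours. Col6a5, Col6a6 and Col15a1 lie furthest left, and Col4a3 and Col18a1 furthest right, the former with a wide bar.

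The spread between tumours was wider among controls. The median SD of a collagen gene was 0.62 among controls and 0.24 with anti-PD-1, and 34 of 43 genes had their larger SD in control. The same values over all genes were not computed, so this spread is not shown to be particular to collagens. An SD of over 1 log2 unit was found for 6 genes among controls and for 0 among treated tumours. Control replicate 3 held the highest value of 17 genes and the lowest of 11, and control replicate 4 held the highest of 14. The authors' deposited table calls 42 of the genes expressed in the control group and 38 in the other. The shares of all genes called in each group were not computed, so this difference is not shown to be particular to collagens. Among genes tested, 41 of the 42 collagens and 18045 of all 21154 genes were called expressed in at least 1 group.

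**Figure D2:**
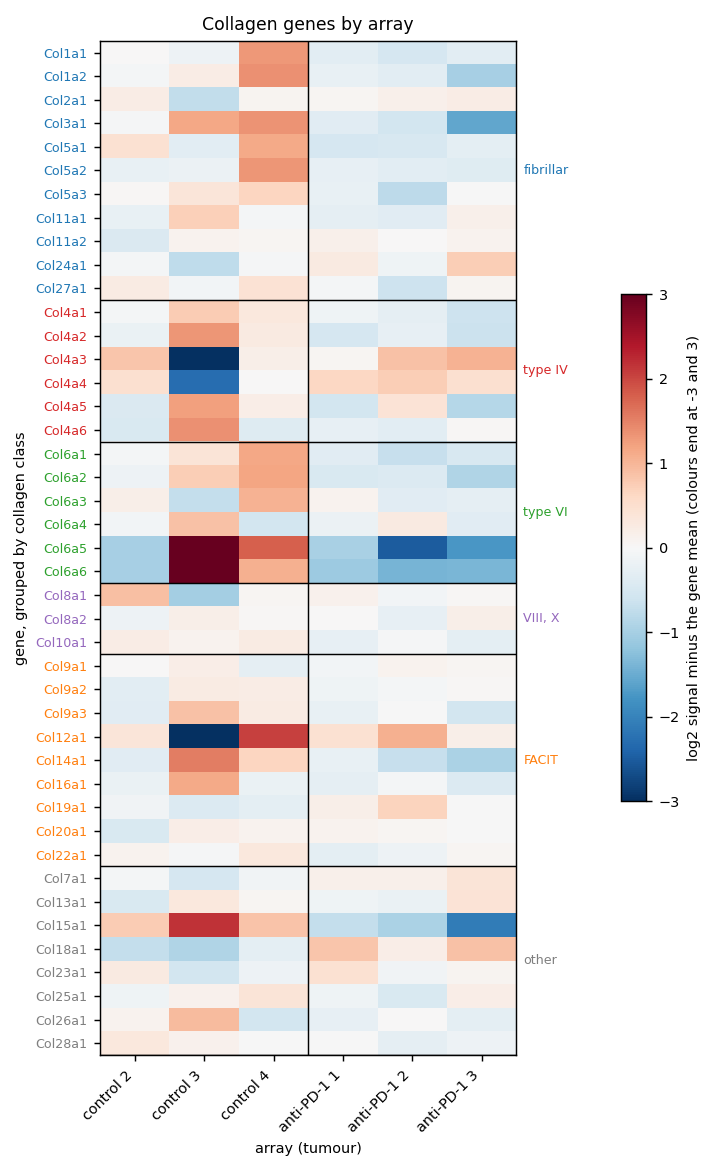
Log2 signal of each collagen gene minus its mean over the 6 arrays, for 3 control and 3 anti-PD-1 arrays (columns), with genes grouped by class (rows). Red is above and blue below the mean, and colours end at -3 and 3. Control replicate 3 shows the extreme values of Col4a3, Col4a4, Col6a5, Col6a6 and Col12a1, while control replicate 4 is high in Col1a1, Col1a2, Col3a1, Col5a1 and Col5a2.

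Of the multiplexins, basement membrane zone collagens that carry heparan or chondroitin sulfate chains, Col15a1 was low and Col18a1 high in every anti-PD-1 tumour. Col15a1 lies on chromosome 4 (mm10, 47208012 to 47313167, plus strand) and Col18a1 on chromosome 10 (77052178 to 77166548, minus strand). Both proteins end in a domain that can be released as a fragment with anti-angiogenic activity, endostatin in the case of collagen XVIII. The 250 bases before the annotated start of each gene are shown because these genes had the smallest p among the collagens, in RefSeq coordinates of GRCm38.p6, 5′ to 3′ on the gene's strand. Capitals mark matches on either strand to a CCAAT box, spelt as its name, to the GC box, GGGCGG, or to a TATA sequence, TATAAA. Matches of different motifs did not overlap. The Col15a1 window is chr4:47207762-47208011 and that of Col18a1 is chr10:77166531-77166780, the more upstream of 2 starts listed for the latter.
Col15a1: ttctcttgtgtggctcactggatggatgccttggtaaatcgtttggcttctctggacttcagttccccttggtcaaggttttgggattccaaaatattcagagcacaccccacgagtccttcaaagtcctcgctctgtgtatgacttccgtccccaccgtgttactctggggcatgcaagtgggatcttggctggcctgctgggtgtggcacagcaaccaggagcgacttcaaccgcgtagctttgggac
Col18a1: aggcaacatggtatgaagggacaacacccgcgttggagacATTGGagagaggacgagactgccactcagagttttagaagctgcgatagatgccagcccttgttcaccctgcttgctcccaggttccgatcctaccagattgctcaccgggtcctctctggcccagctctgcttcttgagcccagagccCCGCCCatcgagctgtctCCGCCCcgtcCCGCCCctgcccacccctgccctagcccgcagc

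The Col18a1 window held 3 GC boxes and 1 CCAAT box and had a G and C content of 62.0%, while the Col15a1 window held none of the 3 motifs, at 53.6%. Among 32851 windows of this length in the RefSeq table, 32.7% held a GC box, 33.8% a CCAAT box and 12.4% a TATA sequence. Of 37 windows of 34 collagen genes, 22 held a GC box, 12 a CCAAT box and 4 a TATA sequence. A match describes the letters only.

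Col15a1 read 10.55, 11.95 and 10.65 in control replicates 2, 3 and 4, and 9.07, 8.83 and 7.69 in anti-PD-1 replicates 1, 2 and 3. The groups were well apart, and anti-PD-1 replicate 3 was the lowest array. The means were 11.05 ± 0.78 and 8.53 ± 0.74 (SD, n = 3 each), a log2 difference of -2.52 ± 0.51 (SE), or 5.74-fold lower in anti-PD-1 tumours, with an adjusted p of 0.506 by limma. Leaving out each array in turn gave differences between -2.79 and -2.07, the latter without control replicate 3.

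Col18a1 read 12.49, 12.30 and 12.90 in the controls and 14.02, 13.40 and 14.08 in the anti-PD-1 tumours. No control reached the lowest treated tumour, and the difference was 1.27 ± 0.28 (SE), with a 95% interval from 0.61 to 1.93 and an adjusted p of 0.506 by limma. With 1 array left out it ran from 1.14 to 1.49. Squamous epithelial markers were also higher in the anti-PD-1 group: their mean log2 signal was 9.08 to 13.13 among controls and 14.30 to 15.86 with anti-PD-1. Of 7 tested, 6 did not overlap between groups, and their median difference was 3.65, or 2.21 without control replicate 3. Within the groups the order of arrays differed. Anti-PD-1 replicate 2 had the highest squamous signal, 15.86, but the lowest treated Col18a1 value, 13.40. Among controls, replicate 3 was lowest in both, while replicate 2 was highest for the squamous markers and replicate 4 for Col18a1. The part of these markers in the Col18a1 difference was not tested. Within each array, Col18a1 minus Col15a1 was 1.94, 0.35 and 2.25 in control replicates 2, 3 and 4 and 4.95, 4.57 and 6.39 in anti-PD-1 replicates 1, 2 and 3. This contrast was chosen after the values were seen and was not tested. The signal of a cluster does not separate the isoforms that the 2 starts of Col18a1 give rise to.

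Blood vessel markers were low in the same arrays as Col15a1. All 7 endothelial markers tested read lower with anti-PD-1, without overlap between groups and with a median of -1.43. Their mean log2 signal ranged from 9.47 to 11.13 among controls and from 8.30 to 9.01 in treated tumours. At an unadjusted p under 0.05 there were 7 of them, 4 on leaving out control replicate 3 or anti-PD-1 replicate 2, and 1 on leaving out anti-PD-1 replicate 3. Without control replicate 3 the endothelial median was -0.87. Their part in the Col15a1 difference was not tested.

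**Figure D3:**
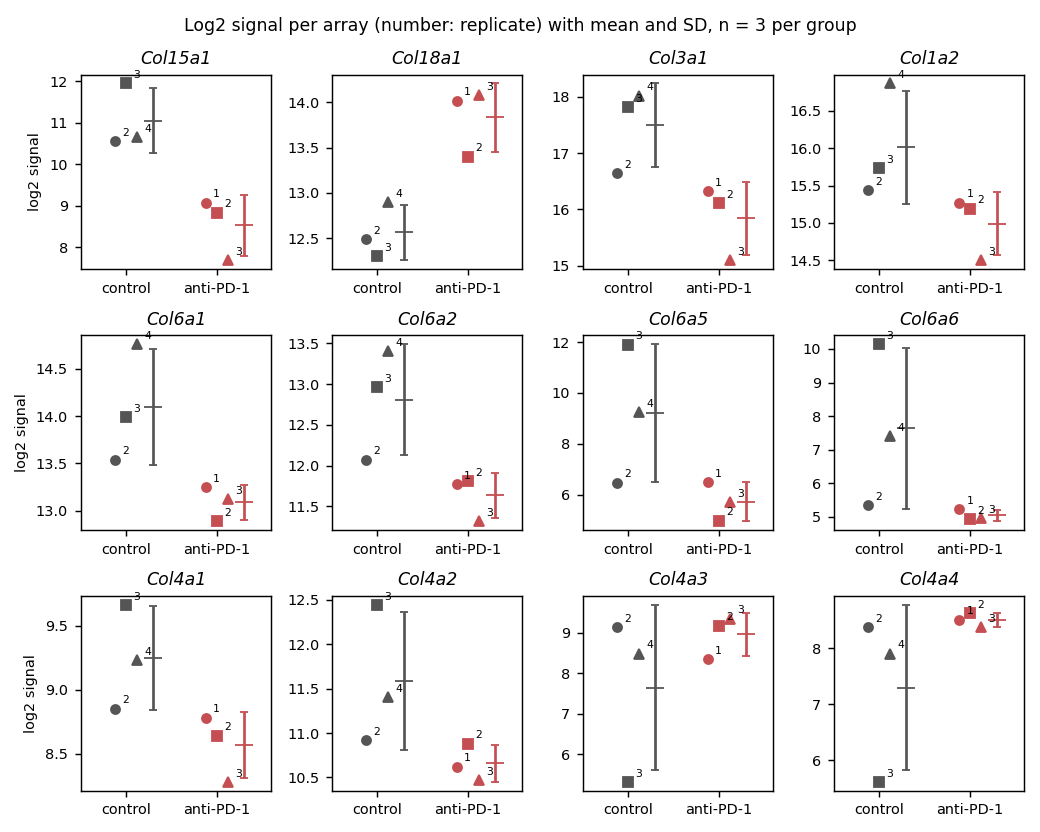
Log2 signal of 12 collagen genes in each array, with the replicate number beside each point and the mean ± SD of 3 arrays to the right of each group. Col15a1, Col3a1, Col6a1 and Col6a2 are separated downward and Col18a1 upward. Control replicate 3 is far above the rest for Col6a5 and Col6a6 and far below for Col4a3 and Col4a4.

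Most fibrillar collagen genes were lower in anti-PD-1 tumours, namely 8 of 11, and the class median was -0.62. At an unadjusted p under 0.05, 3 were lower and none higher (1 lower on leaving out control replicate 4 or anti-PD-1 replicate 1 or 2, and 2 on leaving out anti-PD-1 replicate 3), and 5 showed no overlap between groups, all lower. Col3a1, the chain of collagen III that mixes with type I in elastic tissues and in early scars, had the largest fibrillar difference. Its promoter window, the 250 bases at chr1:45311288-45311537 on the plus strand, held 1 TATA sequence and neither of the other motifs.
Col3a1: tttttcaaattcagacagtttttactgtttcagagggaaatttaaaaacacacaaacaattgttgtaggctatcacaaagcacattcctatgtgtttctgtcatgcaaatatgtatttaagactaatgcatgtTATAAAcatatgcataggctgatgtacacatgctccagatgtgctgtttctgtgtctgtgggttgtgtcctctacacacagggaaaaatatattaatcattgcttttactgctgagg

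Col3a1 read 16.64, 17.82 and 18.02 in control and 16.32, 16.11 and 15.10 in anti-PD-1 tumours. The groups did not overlap, although control replicate 2 lay close to anti-PD-1 replicate 1. The difference was -1.65 ± 0.47 (SE), or 3.14-fold, with an adjusted p of 0.506 by limma, and it ran from -2.08 to -1.28 with 1 array left out.

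Col1a1 and Col1a2 encode the chains of type I collagen, the main protein of bone, tendon and tumour stroma. Col1a2 read 15.44, 15.73 and 16.87 in control and 15.27, 15.19 and 14.50 in anti-PD-1 tumours, a difference of -1.03 ± 0.42 (SE). Col1a1 read 16.22, 16.06 and 17.51 against 15.91, 15.70 and 15.89, a difference of -0.76 ± 0.40 (SE). For both chains control replicate 4 was far above the rest, and the other controls lay just above the anti-PD-1 values. Without control replicate 4 the differences were -0.60 and -0.31. Both were short of the adjusted threshold, at adjusted p of 0.514 and 0.546 by limma.

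Type V collagen nucleates type I fibrils, and its 3 chain genes went the same way as type I. Col5a3 read 7.80, 8.14 and 8.41 in control and 7.55, 6.99 and 7.76 in anti-PD-1 tumours, a difference of -0.68 ± 0.28 (SE). Col5a1 differed by -0.86 ± 0.37 and Col5a2 by -0.62 ± 0.43. For Col5a2 control replicate 4 alone was high, at 13.07, while the other 5 arrays lay between 11.37 and 11.56, and without it the difference was -0.11. Col5a1 overlapped because control replicate 3 read 8.92 and anti-PD-1 replicate 3 read 8.93.

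The minor fibrillar genes stayed closer to 0. Col11a1 and Col11a2, chains of cartilage collagen XI, differed by -0.30 and 0.18, Col27a1 by -0.39, and Col2a1, the cartilage type II chain, by 0.29. Col2a1 moved to -0.01 without control replicate 3, the array with its lowest value, 4.81. Col24a1, a fibrillar collagen of developing bone and cornea, was the highest of the class in relative terms, at 0.59 ± 0.32 (SE). The fibrillar median was -0.31 without control replicate 4 and -0.67 without control replicate 3. The cartilage markers tested as a check had a median difference of 0.05 over 6 genes.

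All 6 type VI genes were lower in anti-PD-1 tumours, and their median difference was -1.09. Type VI collagen forms beaded filaments that link cells to the surrounding matrix, and its classical form joins the chains of Col6a1, Col6a2 and Col6a3, while Col6a4, Col6a5 and Col6a6 encode chains related to that of Col6a3. At an unadjusted p under 0.05, 4 of the 6 were lower, but 2 without control replicate 4 and 1 when anti-PD-1 replicate 2 or 3 was left out. Col6a2 read 12.07, 12.96 and 13.40 in control and 11.77, 11.81 and 11.32 in anti-PD-1 tumours, a difference of -1.18 ± 0.37 (SE). Col6a1, its neighbour on chromosome 10 at a gap of 85161 bases, read 13.54, 13.99 and 14.76 against 13.25, 12.89 and 13.12, a difference of -1.01 ± 0.34 (SE). In both genes the groups were separate, control replicate 2 was the lowest control, and control replicate 4 was the highest array. Their adjusted p was 0.506 each by limma.

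Col6a3 did not share this separation. It read 14.47, 13.59 and 15.35 in control and 14.41, 13.96 and 14.02 in anti-PD-1 tumours, a difference of -0.34 ± 0.44 (SE), which turned to 0.10 without control replicate 4. Control replicate 3 had the lowest Col6a3 value of all arrays, although its Col6a1 and Col6a2 were above every anti-PD-1 value.

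Col6a5 and Col6a6 showed the widest range of all type VI genes. They lie in a row with Col6a4 on chromosome 9 on the minus strand, Col6a5 from 105856070 to 105960643 and Col6a6 from 105689417 to 105828085, with 27984 bases between them. Their promoter windows are given because the pair varied together across arrays. That of Col6a5 is chr9:105960644-105960893 and that of Col6a6 is chr9:105828086-105828335, and they held 1 and 2 GC boxes.
Col6a5: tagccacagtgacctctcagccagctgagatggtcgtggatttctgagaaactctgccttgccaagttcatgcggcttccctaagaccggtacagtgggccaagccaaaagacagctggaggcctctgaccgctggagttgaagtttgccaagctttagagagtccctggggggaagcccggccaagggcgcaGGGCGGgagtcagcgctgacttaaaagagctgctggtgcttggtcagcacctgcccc
Col6a6: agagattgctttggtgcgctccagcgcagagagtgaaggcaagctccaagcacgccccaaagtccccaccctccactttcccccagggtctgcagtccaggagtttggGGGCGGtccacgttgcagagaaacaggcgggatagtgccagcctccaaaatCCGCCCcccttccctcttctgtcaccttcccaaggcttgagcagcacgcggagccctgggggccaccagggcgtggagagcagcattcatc

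Col6a5 read 6.47, 11.89 and 9.25 in control and 6.49, 4.97 and 5.71 in anti-PD-1 tumours. Control replicates 3 and 4 were high, while control replicate 2 lay just below the highest anti-PD-1 value. The difference was -3.48 ± 1.26 (SE), or -2.14 without control replicate 3 and -4.85 without control replicate 2. Col6a6 read 5.35, 10.14 and 7.41 against 5.24, 4.94 and 4.96, a difference of -2.59 ± 1.08 (SE), or -1.33 without control replicate 3. The order of the 3 controls was the same in both genes, and the adjusted p by limma was 0.506 and 0.514. Col6a4 differed by -0.16, and by 0.24 without control replicate 3.

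Fibroblast markers followed a similar order of arrays. The mean log2 signal of 9 fibroblast markers was 11.41, 12.92 and 12.63 in control replicates 2, 3 and 4 and 11.45, 11.30 and 10.35 in anti-PD-1 replicates 1, 2 and 3. As for Col6a5, control replicate 2 lay among the treated tumours. Of the 9 markers, 7 were lower with anti-PD-1, 4 of them at an unadjusted p under 0.05, and the median difference was -1.20. It was -2.10 without control replicate 2, -0.80 without control replicate 3, and leaving out anti-PD-1 replicate 3 gave -0.59. Those 4 at an unadjusted p under 0.05 by limma were Dpt, Mfap5, Dpp4 and Pi16, at -2.35, -2.33, -2.15 and -2.10. All but Dpt were without overlap. The broad stromal genes Thy1 and Pdgfrb differed by 0.13 and -0.58. The part of these markers in the fibrillar and type VI differences was not tested.

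**Figure D4:**
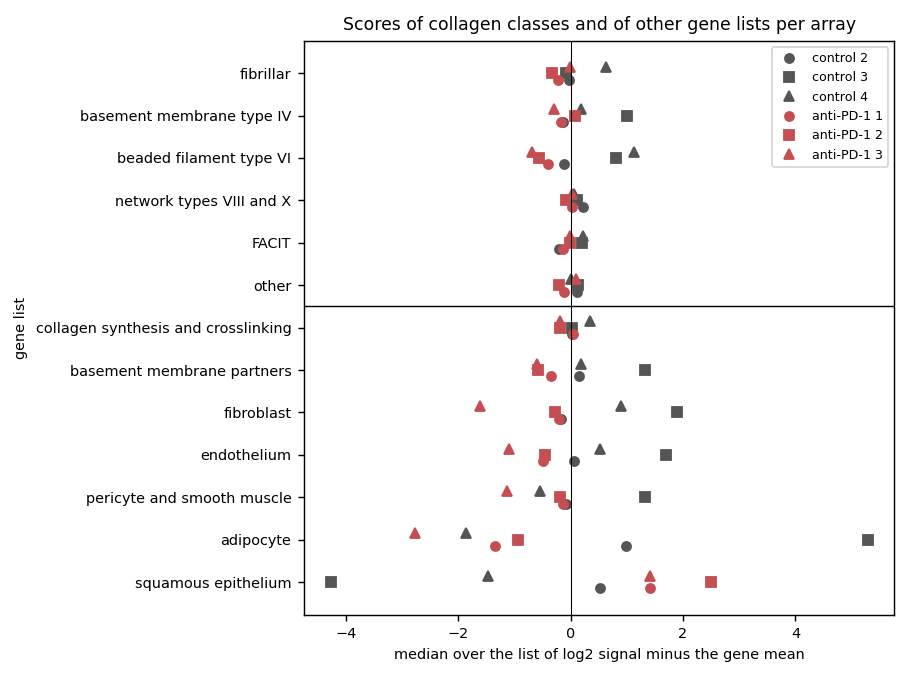
Score of each collagen class, of genes that act with collagens and of marker lists in each array, where a score is a list's median deviation, in log2 units, from each gene's own average of 6 arrays (x axis). Grey symbols are controls and red symbols anti-PD-1 tumours. Type VI has all 3 anti-PD-1 scores below all control scores, and so have types VIII and X. The same holds for the endothelial and fibroblast lists and the basement membrane partners. Control replicate 3 is the outermost array for adipocyte and squamous markers.

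Type IV genes divided into the pairs that lie head to head on a chromosome. Col4a1 and Col4a2, whose chains form the common basement membrane network, were lower in anti-PD-1 tumours, and Col4a3 and Col4a4, whose chains join that of Col4a5 in the kidney glomerulus and some epithelia, were higher on average. Col4a1 (chromosome 8, 11198423 to 11312826) and Col4a2 (11312805 to 11449287) point away from each other, and their annotated starts overlap by 22 bases. The stretch chr8:11312801-11312830, shown on the plus strand because it holds the starts of both genes, has in capitals the first base of Col4a2 at position 11312805 and that of Col4a1 at position 11312826.
Col4a1 and Col4a2: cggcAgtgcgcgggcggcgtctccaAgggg

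Col4a1 read 8.85, 9.66 and 9.23 in control and 8.78, 8.64 and 8.28 in anti-PD-1 tumours, a difference of -0.68 ± 0.28 (SE). Col4a2 read 10.92, 12.44 and 11.40 against 10.62, 10.88 and 10.47, a difference of -0.93 ± 0.40 (SE). Neither gene's groups overlapped, but in both control replicate 2 was only just above the highest treated tumour. Without control replicate 3, where both were highest, the differences were -0.47 and -0.50. Col4a1 minus Col4a2 stayed between -2.78 and -1.84 in the 6 arrays, a narrower range than that of either gene over the 6 arrays. The adjusted p by limma was 0.511 for Col4a1 and 0.518 for Col4a2.

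Col4a3 and Col4a4 lie on chromosome 1 with 71 bases between their annotated starts. Col4a4 read 8.37, 5.61 and 7.90 in control and 8.51, 8.63 and 8.37 in anti-PD-1 tumours, a difference of 1.21 ± 0.68 (SE). Col4a3 read 9.13, 5.32 and 8.48 against 8.35, 9.17 and 9.35, a difference of 1.31 ± 0.95 (SE). The low value of control replicate 3 set both averages apart, and without it the differences were 0.37 and 0.15. Squamous markers had their lowest signal in the same array, and their part was not tested.

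The third pair, Col4a5 and Col4a6 on the X chromosome with 1308 bases between the genes, was dim. Col4a5, not called expressed with anti-PD-1, was at least 1.58-fold higher in control by the group means, at a log2 difference of -0.66 ± 0.50 (SE). Col4a6 differed by -0.34, and by 0.26 without control replicate 3, which held its highest value, 6.78. Over the 6 type IV genes the median difference was -0.50 with all arrays and -0.03 without control replicate 3, with 1 gene lower at an unadjusted p under 0.05. That count was 0 on leaving out any array but control replicate 2, whose omission gave 2 lower genes and 1 higher.

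FACIT genes showed no common direction, with 4 higher and 5 lower and a median of -0.10, which ran from -0.27 to -0.05 with 1 array left out, the former without control replicate 2. Col14a1, which encodes a chain that binds to type I fibrils in skin and tendon, was the gene of the class with the smallest p. It read 7.79, 9.66 and 8.77 in control and 7.91, 7.43 and 7.17 in anti-PD-1 tumours, a difference of -1.24 ± 0.48 (SE), or -0.78 without control replicate 3, and an adjusted p of 0.508 by limma. Control replicate 2 lay below anti-PD-1 replicate 1, so the groups overlapped.

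Col12a1, a related fibril-bridging chain of tendon and tumour stroma, had the largest SD among the controls, 3.19, of all collagens. It read 10.60, 6.10 and 12.27 in control and 10.69, 11.30 and 10.40 in anti-PD-1 tumours. Control replicate 3 was far below every other array, and the difference was 1.14 ± 1.44 (SE) with it and -0.64 without it. In the same array Col14a1 had its highest value, so the 2 FACIT chains went opposite ways there.

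Of the remaining FACIT genes, Col19a1 was called expressed in neither group, and its values of 4.18, 3.86 and 3.98 in control and 4.45, 4.95 and 4.27 with anti-PD-1 give no fold. The type IX genes Col9a1, Col9a2 and Col9a3, which coat type II fibrils in cartilage, differed by 0.05, -0.10 and -0.52. Col9a3 read 7.21, 8.44 and 7.79 in control and 7.33, 7.54 and 7.00 in anti-PD-1 tumours, and control replicate 3 was again the highest array. For Col9a2, not called expressed with anti-PD-1, control was 1.07-fold brighter by the group means. Col16a1 differed by -0.49, and by -0.05 without control replicate 3. Col20a1 and Col22a1 differed by 0.10 and -0.25.

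The network-forming genes had a median difference of -0.04, which was -0.43 without control replicate 3. Col8a1 and Col8a2 encode chains of the hexagonal lattice below corneal and vascular endothelium. Col8a1 read 8.02, 6.11 and 7.19 in control and 7.25, 7.04 and 7.16 in anti-PD-1 tumours, a difference of 0.04 with a 95% interval from -1.06 to 1.14. Col8a2 read 7.99, 8.32 and 8.18 against 8.16, 7.89 and 8.31, a difference of -0.04 with an interval from -0.55 to 0.47. Differences of up to the ends of these intervals remain compatible with the values of 3 arrays per group. Col10a1, the collagen of hypertrophic cartilage, was dim, at 3.92, 3.81 and 3.93 in control and 3.44, 3.66 and 3.40 with anti-PD-1. It was not called expressed in the latter group, and control was 1.31-fold brighter by the group means.

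Among the other genes, Col7a1 encodes the anchoring fibril chain that ties the epidermal basement membrane to the dermis. It read 9.42, 8.99 and 9.38 in control and 9.63, 9.63 and 9.88 in anti-PD-1 tumours, a difference of 0.45 ± 0.22 (SE) without overlap and with an adjusted p of 0.533 by limma over all clusters. Without control replicate 3 it was 0.31. The squamous markers described with Col18a1 were also higher in the anti-PD-1 group, and their part was not tested here either. The membrane-spanning collagens Col13a1, Col23a1 and Col25a1 differed by 0.05, 0.29 and -0.26. Col28a1, expressed mainly around peripheral nerve, differed by -0.29 without overlap. Col26a1, likewise not called expressed with anti-PD-1, was 1.27-fold brighter in control by the group means, although its log2 difference was 0.05 without control replicate 3.

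**Figure D5:**
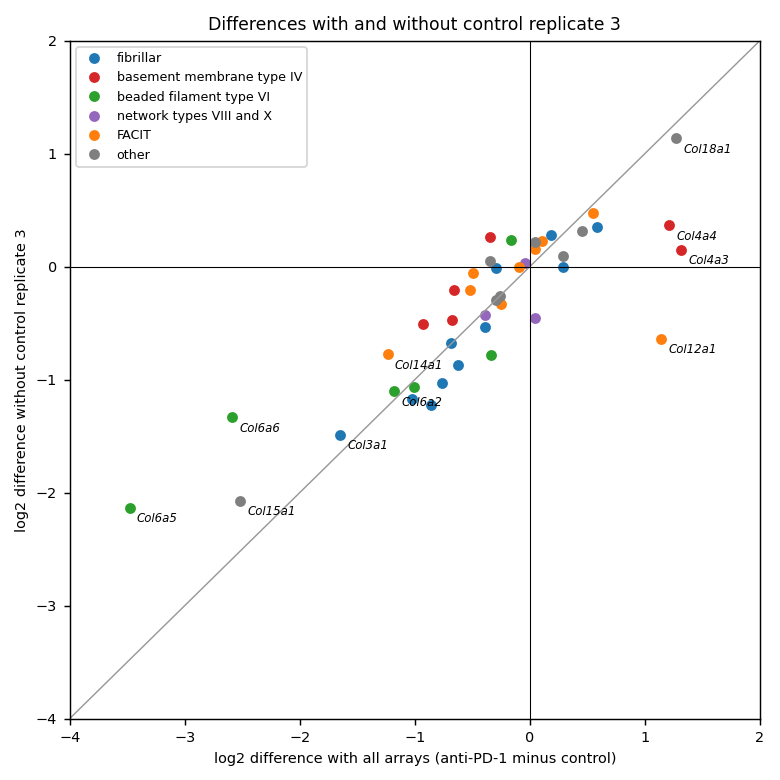
Log2 difference of each collagen gene, anti-PD-1 minus control, with all 6 arrays (x axis) and without control replicate 3 (y axis), where the grey line marks equal values. Col15a1, Col3a1 and Col18a1 keep their sign and most of their size, at -2.07, -1.49 and 1.14 without that array. Col4a3, Col4a4, Col6a5 and Col6a6 move toward 0, and Col12a1 changes sign.

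Genes that make and crosslink collagen were also lower more often than higher. Of 31 measured, 19 were lower and 12 higher in anti-PD-1 tumours (median -0.18). At an unadjusted p under 0.05 by limma, 5 were lower, or 16.1%, beside 4.52% of all genes, and 0 higher, beside 5.18%. Serpinh1, the chaperone of the procollagen triple helix, read 13.05, 14.03 and 13.46 in control and 12.34, 12.29 and 11.77 in anti-PD-1 tumours, a difference of -1.38 ± 0.31 (SE) without overlap. The other lower genes were Creb3l1, a transcription factor of procollagen-secreting cells, at -1.62, Fkbp14, a prolyl isomerase of the endoplasmic reticulum, at -1.36, Loxl1, a lysyl oxidase, at -1.01, and Mia3, which helps load procollagen into transport vesicles, at -0.71. None passed the adjusted threshold, at an adjusted p of 0.506 each by limma. The count of 5 lower genes was 8 (25.8%) without control replicate 2 or 3, beside 6.74% and 4.57% of all genes. It was 3 (9.68%) without anti-PD-1 replicate 3, beside 2.18%. Without control replicate 2 there were also 3 higher genes, or 9.68%, close to the 8.22% of all genes.

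Basement membrane partners of type IV collagen were lower in 11 of 16 cases, with a median of -1.17. At an unadjusted p under 0.05 by limma, 7 were lower, or 43.8%, beside 4.52% of all genes. Nid1, the linker nidogen, read 13.16, 14.96 and 13.65 in control and 12.17, 12.13 and 11.50 in anti-PD-1 tumours, a difference of -1.99 ± 0.48 (SE). Hspg2, the heparan sulfate proteoglycan perlecan, differed by -1.69, and the laminin chain genes Lama4, Lamb2 and Lamc1 by -1.81, -1.30 and -1.17, all without overlap. The median was -0.53 without control replicate 3. The count of 7 was 4 (25%) without anti-PD-1 replicate 2 or 3, beside 3.12% and 2.18% of all genes. Without control replicate 2 there were 9 lower genes (56.2%, beside 6.74%) and 3 higher (18.8%, beside 8.22%). The epithelial laminin chain genes Lama3 and Lamb3 read higher, at 2.13 and 2.35, and were at 0.82 and 0.85 without control replicate 3. None passed the adjusted threshold by limma.

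Collagen receptors and turnover genes had 10 of 17 members lower and a median of -0.11. Fap, a serine protease of activated fibroblasts, read 10.55, 11.95 and 10.91 in control and 9.55, 9.01 and 8.23 in anti-PD-1 tumours, a difference of -2.21 ± 0.47 (SE) without overlap. Mmp2, a gelatinase, differed by -1.82 and Mrc2, an endocytic collagen receptor, by -1.04, while the gelatinase gene Mmp9 and the epithelial collagen receptor gene Ddr1 were 2.16 and 0.95 above control. These 5 genes were those at an unadjusted p under 0.05 by limma. The 3 lower were 17.6%, beside 4.52% of all genes, and the 2 higher were 11.8%, beside 5.18%. The 3 lower calls became 1 (5.88%, beside 2.18% to 4.79%) when control replicate 4 or anti-PD-1 replicate 2 or 3 was left out. They became 2 (11.8%, beside 3.1%) when anti-PD-1 replicate 1 was. The 2 higher calls became 3 (17.6%, beside 8.22%) without control replicate 2 and 1 (5.88%, beside 2.7% to 4.54%) on leaving out any other array. None passed the adjusted threshold by limma.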

How the data were processed

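RNA of 6 tumours, 250 ng each, was labelled and read on Clariom S Mouse arrays, per the labels' protocols. Per the file headers, the log2 signals per transcript cluster come from gene-level SST-RMA with an annotation for mm10. Transcriptome Analysis Console is the tool in the submitters' processing notes, without a version. The authors' deposited table also gives group averages in log2, whose kind it does not name and which are not arithmetic means, a standard deviation and a signed fold change (scores), expressed calls, and p-values with FDR from a test that it does not name. Its fold is control over anti-PD-1, and the direction here is the opposite. The second deposited table held the same log2 signals, with 0 values different. No scanner files were used, so background correction, normalization from raw signals and slide effects were not varied. Array medians lay between 7.04 and 7.13, and between-array normalization makes each difference relative to the bulk of genes.

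Columns were tied to samples by the replicate in the titles. Clusters with several gene names (836) or none (3) were left out, and for 132 genes with more than 1 cluster the brightest was kept, which gave 21154 genes. Col7a1 came from a fit over all 22206 clusters. The groups were compared by a two-sided limma test (lmFit, then eBayes; limma 3.58.1, R 4.3.3). Adjusted p-values are Benjamini-Hochberg over all genes tested, with 0.05 as threshold. The fit was tested on simulated data. No gene list was tested as a set. An exact permutation test of 3 against 3 arrays cannot give a two-sided p under 0.1 and was not run. Errors are SD between arrays or SE of the fit, and precision is limited by having 3 arrays in each group. For collagen genes called expressed in 1 group only, folds compare the group means and are estimates, not lower bounds. In the other group, array values below the array's lowest signal among clusters called expressed were to be raised to it. This left the folds given here unchanged.

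The collagen genes, the classes and the lists (33 synthesis, 18 receptor and turnover, 16 basement membrane genes and 10 marker lists) were chosen with earlier results of these data known. Values in every array are given for the genes of smallest p in each class and the chains that join or neighbour them. Col5a1, Col5a2, Col12a1, Thy1, Pdgfrb, Dpt, Mfap5, Dpp4, Pi16, Lama3 and Lamb3 were named after their values were seen. Medians of the log2 difference in the remaining marker lists were -0.93 (pericyte and smooth muscle), -3.15 (adipocyte), -2.62 (mammary and milk), -0.85 (skeletal muscle), 3.65 (squamous), -0.51 (macrophage) and -1.79 (Schwann cell). Without control replicate 3 they were, in the same order, -0.08, -1.16, -1.64, 0.06, 2.21, -0.755 and -0.54. With all arrays, no adipocyte or skeletal muscle marker was at an unadjusted p under 0.05 by limma or free of overlap between groups. Promoter windows came from RefSeq (GRCm38.p6) and were matched by symbol for 34 of the 43 genes.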

Additional observations from a re-analysis of the deposited data

How the results depend on the processing

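No collagen gene passed the adjusted threshold under any of 14 alternatives, and the smallest adjusted p was 0.150, for Col6a5 without control replicate 2. Of 587 gene values under alternatives, 567 kept their direction. Part of this was fixed in advance, since some alternatives leave each gene's difference unchanged. These are eBayes with trend and robust, genes called expressed in a group, all transcript clusters and the series matrix values. With 1 array left out, the lower genes at an unadjusted p under 0.05 numbered 3 to 12 (10 with all arrays), and the higher genes 1 to 2. The higher genes without overlap numbered 2 to 4 (4.76% to 9.52%, beside 12.5% to 18.7% of all genes). The lower genes without overlap numbered 14 to 17 (33.3% to 40.5%, beside 11.2% to 15% of all genes). Class medians then ran from -0.84 to -0.31 for fibrillar, -0.77 to -0.028 for type IV, -0.43 to 0.07 for network and -0.29 to 0.05 for the other collagens, and from -0.30 to 0.25 for receptors and turnover. Single genes that changed sign ran from -0.0067 to 0.48 (Col2a1), -0.66 to 0.26 (Col4a6), -0.78 to 0.10 (Col6a3), -0.48 to 0.24 (Col6a4), -0.455 to 0.50 (Col8a1), -0.14 to 0.072 (Col8a2), -0.082 to 0.15 (Col9a1), -0.64 to 2.45 (Col12a1), -0.10 to 0.23 (Col20a1), -0.17 to 0.22 (Col13a1) and -0.71 to 0.047 (Col26a1). With array weights, which gave control replicate 3 the lowest weight, Col4a6 was at 0.0024, Col6a4 at 0.10, Col8a1 at -0.137 and Col12a1 at -0.16, and the medians were -0.137 for network and -0.053 for the other collagens. With eBayes trend and robust, 2 genes (4.76%, beside 5.12% of all genes) were higher at an unadjusted p under 0.05. With genes called expressed in a group only, 1 gene (2.44%, beside 9.39% of all genes) was higher without overlap, since Col19a1 was then not tested. The cause of the other changes was not tested.

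Samples of the same replicate number did not deviate together (correlations of -0.196 and -0.191 across genes for numbers 2 and 3), and the labels do not say that a number is shared. Only numbers 2 and 3 occur in both groups, so with the replicate block control replicate 4 and anti-PD-1 replicate 1 add nothing to the difference. The block leaves 1 residual degree of freedom. With it, 2 genes were lower at an unadjusted p under 0.05. The median of the other collagens was -0.13 and that of receptors and turnover 0.24, and Col9a1 and Col9a2 were at -0.025 and 0.025. Quantile normalization and median centring reversed no collagen gene, and all transcript clusters and the series matrix values could not.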
